A study of Mus musculus with 7 samples.

Results

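The 39 Hox cluster genes of the mouse were examined in embryonic stem cells (ESCs) with and without the distal super-enhancer (SE) of Sox2. They were taken as the protein-coding genes of the GENCODE M1 annotation named Hoxa, Hoxb, Hoxc or Hoxd and a number. They are 39 of 31476 genes with enough unique exonic sequence to be counted, and 39 of 21971 protein-coding genes, with 11 in HoxA, 10 in HoxB, 9 in HoxC and 9 in HoxD. The question put to the data was where these genes stand in wild type ESCs, by RNA and by histone marks, and where they stand when the SE is lost from 1 or both Sox2 alleles.

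RNA-seq was from 4 clones of F123, an F1 hybrid line of Mus musculus castaneus (CAST) and S129/SvJae (129). These were wild type, CAST+/129- with the SE deleted on the 129 allele, CAST-/129+ with it deleted on the CAST allele, and CAST-/129- with it deleted on both. Each deletion was made with CRISPR and is represented by 1 clone and 1 library, so clone and genotype cannot be told apart. The study's methods state that cells were taken through 2 passages on gelatin without feeder cells before harvest, and that transfected cells had recovered on mouse embryonic fibroblast (MEF) feeders. ChIP-seq was for H3K4me3 in F123, H3K27ac in F123 and H3K27ac in J1, an ESC line of 129 background, with 1 library for each. None of the ChIP-seq libraries is from a deletion clone. With 1 library per condition no difference has a replicate check and no test was possible, so intervals below are 95% intervals that cover counting error only.

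Hox genes encode homeodomain transcription factors that give cells their position along the head-to-tail axis. They lie in 4 clusters, and genes of the same number in different clusters are paralogues that descend from 1 ancestral gene. Low numbers act toward the head and start early, and high numbers act toward the tail and in the limbs and start late. In ESCs they are known as silent genes whose promoters are held by Polycomb proteins with H3K27me3, often together with H3K4me3, a mark of promoters. H3K27ac marks promoters and enhancers in use. H3K27me3 was not measured here.

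Alignments on genes numbered 24910776 in wild type, while CAST+/129- had 12496488, CAST-/129+ had 6084280 and CAST-/129- had 5852476, so that 1 alignment on 1 kb of exon was worth 0.0401, 0.0800, 0.164 and 0.171 FPKM. FPKM is the number of alignments per kb of unique exon, scaled to the alignments on genes of the library. The 39 genes held 755 alignments in wild type and 282, 161 and 454 in the deletion clones in that order, which sets the precision of everything below. Values listed without library names are in that same order, wild type first. Sox2, the gene for which the deleted distal SE is named, was at 174 FPKM in wild type, while CAST+/129- had 81.7, CAST-/129+ had 72.8 and CAST-/129- had 7.37, in the order of the labels.

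Hox RNA was scarce in wild type ESCs. Of the 39 genes, 5 were at or above 1 FPKM, or 12.8%, against 54.8% of all protein-coding genes, and 8 had no alignment at all. The count of 5 became 1 with reads before collapsing, where each distinct alignment is weighted by the reads it stands for, and 2 with a library size of all alignments. The median gene was at 0.110 FPKM. The highest was Hoxc13 at 2.68 FPKM (2.13 to 3.32), and among the others were Hoxc4 at 1.30 (0.937 to 1.76), Hoxd13 at 1.03 (0.708 to 1.46) and Hoxb9 at 1.03 (0.709 to 1.45). Hoxc13 and Hoxd13 are the genes at the late ends of their clusters, with known roles in hair and in digits. The interval of Hoxc13 lay above those of Hoxc4, Hoxd13 and Hoxb9, and these last had intervals that overlapped.

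**Figure D1:**
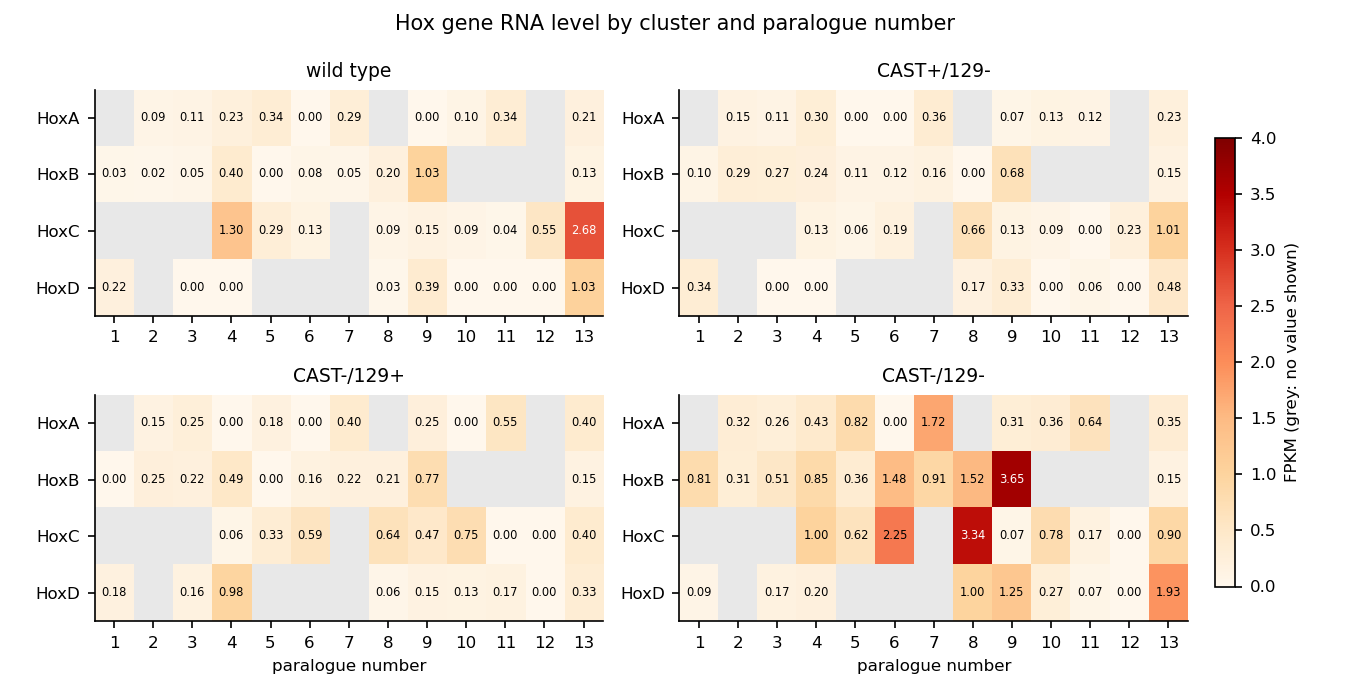
RNA level of each Hox gene in FPKM (colour and printed value) by cluster (rows) and paralogue number (columns) in the 4 RNA-seq libraries, 1 panel each, with grey where no value is shown. In wild type the darkest cell is Hoxc13, and in CAST-/129- they are Hoxb9, Hoxc8 and Hoxc6 in the middle columns.

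Fewer Hox genes reached this level in the monoallelic clones than in wild type. In CAST+/129- 2 Hox genes were at or above 1 FPKM, among them Hoxc13 at 1.01 FPKM (0.570 to 1.65), against 53.8% of protein-coding genes. In CAST-/129+ there were 0, against 55.2%, and the highest was Hoxd4 at 0.984 FPKM, for which 835 of 2560 exonic bases are its own and the rest overlap Hoxd3. In CAST-/129- there were 9, against 56.7%. These were Hoxb9, Hoxc8, Hoxc6, Hoxd13, Hoxa7, Hoxb8, Hoxb6, Hoxd9 and Hoxc4. With each start position counted once the 9 became 18, the 2 of CAST+/129- became 4 and the 0 of CAST-/129+ became 4. The levels remained low in all 4 libraries, and no Hox gene reached 4 FPKM in any.

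By the 3-fold rule of the study, taken after 4 is added to each FPKM, 0 of the 39 Hox genes were up and 0 were down in any deletion clone. The background was 0.441% of protein-coding genes up and 0.423% down in CAST+/129-, 0.624% and 0.437% in CAST-/129+, and 1.12% and 0.678% in CAST-/129-. A gene near 0 in wild type would have to reach 8 FPKM to pass, so the rule has little reach at these levels. With 1 added instead, 0 were past 3-fold in the monoallelic clones, against 1.24% up and 1.5% down in CAST+/129- and 1.8% and 1.54% in CAST-/129+. In CAST-/129- Hoxc8 was up and 0 were down, against 3.09% and 2.04%. On the log2 scale after adding 4, the largest difference from wild type in CAST-/129- was that of Hoxc8, at 0.85, and the lowest that of Hoxc13, at -0.45. The summed level and the counts behind each gene were therefore read next.

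Summed over the 39 genes, Hox FPKM was 12.3 in wild type, while CAST+/129- had 8.81, CAST-/129+ had 10.4 and CAST-/129- had 30.8. The sums were 71.6% (58.6% to 87.1%), 84.9% (65.9% to 108%) and 251% (212% to 296%) of wild type. As background, the 10569 other protein-coding genes with a mean under 5 FPKM summed to 77.5%, 84.8% and 99.8%, and the 6912 of them under 1 FPKM to 80.4%, 101% and 115%. The Hox intervals of both monoallelic clones thus included the values of other scarce RNAs, and that of CAST-/129- lay above them. Single genes did not follow the sums in the monoallelic clones, where more Hox genes were higher than lower and more background genes were lower. In CAST-/129- 31 Hox genes were higher than in wild type, 6 lower and 2 at 0 in both, against 43.7% higher and 44.2% lower among the other genes under 5 FPKM. The split was 18 higher, 16 lower and 5 at 0 in both in CAST+/129-, and 23, 13 and 3 in CAST-/129+. The background there was 40.1% higher and 51% lower, and 45.4% higher and 46.3% lower.

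The counting interval of the ratio to wild type lay wholly above 100% for 15 of the 39 genes in CAST-/129-, or 38.5%, against 17.8% of the other genes under 5 FPKM. These were Hoxb1, Hoxb2, Hoxb3, Hoxb5, Hoxb6, Hoxb7, Hoxb8 and Hoxb9, which is 8 of the 10 HoxB genes, with Hoxa7, Hoxa9, Hoxc6, Hoxc8, Hoxc10, Hoxd8 and Hoxd9. It lay wholly below 100% for Hoxc13 alone, against 13.5%. In CAST+/129- 2 genes were above, Hoxb2 and Hoxc8, against 11.6%, and 2 below, Hoxc4 and Hoxc13, against 20%. In CAST-/129+ 5 were above, against 13%, and 3 were below, Hoxc4 and Hoxc13 among them, against 15.1%. The 3 comparisons share the wild type library.

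The genes in the middle of the series accounted for most of the CAST-/129- sum. The 15 central genes, of paralogue numbers 4 to 8, summed to 3.43 FPKM in wild type, while CAST+/129- had 2.51, CAST-/129+ had 4.32 and CAST-/129- had 16.5, the last being 481% (367% to 630%) of wild type. The 8 anterior genes, numbers 1 to 3, summed to 2.14, 2.59, 1.61 and 3.44 FPKM, and the 16 posterior genes, numbers 9 to 13, to 6.74, 3.72, 4.52 and 10.9 FPKM. In CAST-/129- these were 161% (101% to 250%) and 162% (123.2% to 211%) of wild type, below the interval of the central genes. By single number, groups 6, 7 and 8 were at 1816% (729% to 5403%), 759% (364% to 1657%) and 1829% (823% to 4688%) of wild type and group 9 at 338% (216% to 527%). Group 1 was at 101% (50.5% to 186%) and group 13 at 82.3% (50.8% to 128%). The split was not clean, since group 4, also central, was at 129% (73.9% to 215%). Outside the central numbers, groups 10, 3 and 2 were at 716% (246% to 2217%), 575% (229% to 1450%) and 534% (110% to 2992%). These rest on 20, 23 and 10 alignments in CAST-/129-. By cluster, HoxB was at 527% (377% to 740%) and HoxD at 299% (189% to 469%), with HoxA at 185% and HoxC at 172%. HoxC combined opposite differences, with Hoxc6 and Hoxc8 higher and Hoxc13 lower.

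**Figure D2:**
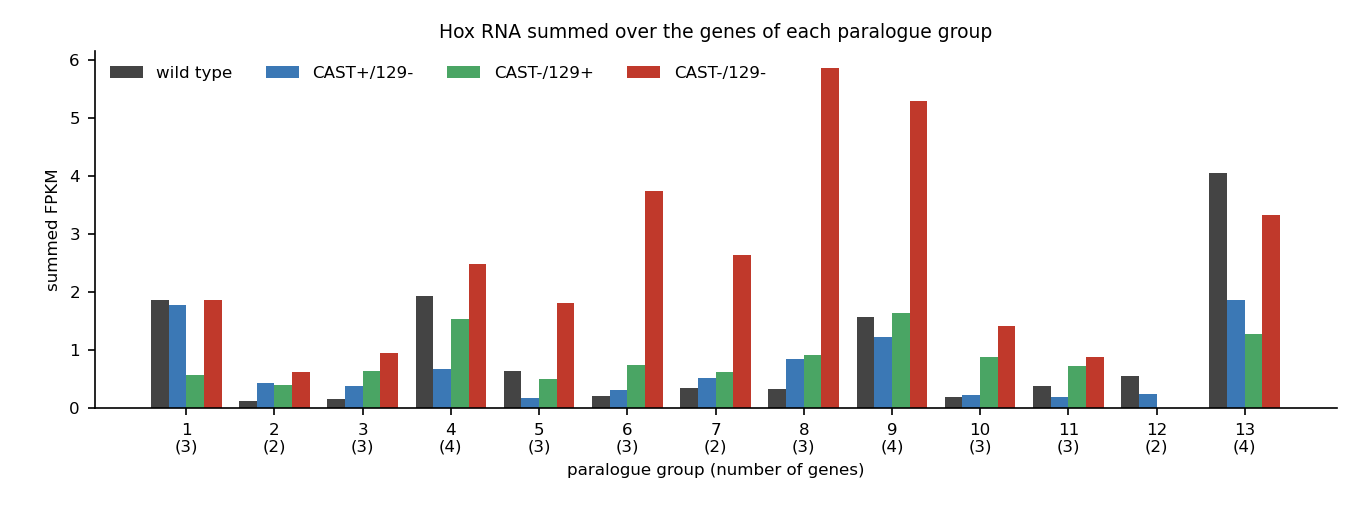
Summed FPKM of the Hox genes of each paralogue number in the 4 RNA-seq libraries, with the number of genes in parentheses and no error bars. The CAST-/129- bars of groups 6, 7, 8 and 9 stand at 3.74, 2.63, 5.86 and 5.28 FPKM, while in group 13 wild type has the highest bar, at 4.05 FPKM.

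Hoxc8, a gene of thoracic identity, had the largest difference. It was at 0.0873 FPKM in wild type (0.0145 to 0.280), while CAST+/129- had 0.661 (0.310 to 1.23), CAST-/129+ had 0.643 (0.193 to 1.57) and CAST-/129- had 3.34 (2.11 to 5.04), from 5, 19, 9 and 45 alignments. All 3 deletion clones were above wild type, and the interval of CAST-/129- met none of the others. The ratio to wild type was 3831% (1059% to 24613%) for the biallelic clone, against 758% (177% to 5286%) for CAST+/129- and 737% (125.4% to 5916%) for CAST-/129+. With reads before collapsing the ratios were 7836%, 1282% and 1301%, and in coding bases alone that of the biallelic clone was 2341%. Its neighbour Hoxc6 was at 0.128 FPKM in wild type, while CAST+/129- had 0.192, CAST-/129+ had 0.591 and CAST-/129- had 2.25 (1.30 to 3.63), and only the last stood apart from wild type by its interval. Its ratio of 1756% became 3296% with reads before collapsing.

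In HoxB the gene with the most RNA was Hoxb9, which acts in the thorax. It was at 1.03 FPKM in wild type, while CAST+/129- had 0.684 (0.341 to 1.22), CAST-/129+ had 0.766 (0.281 to 1.67) and CAST-/129- had 3.65 (2.42 to 5.29). The monoallelic clones overlapped with wild type, and CAST-/129- was at 355% (206% to 607%) of it, the highest Hox level of any library. Hoxb6 was at 0.0773, 0.116, 0.158 and 1.48 FPKM (0.677 to 2.81 in CAST-/129-). Hoxb8, which overlaps Hoxb7 so that 1576 of its 2645 exonic bases were counted, was at 0.204 FPKM in wild type, at 0 in CAST+/129- where up to 0.305 FPKM was allowed, at 0.209 in CAST-/129+ and at 1.52 in CAST-/129- (0.610 to 3.13). For both, CAST-/129- alone was above wild type by its interval. With reads before collapsing the CAST-/129- ratio of Hoxb9 became 538%, that of Hoxb6 went from 1915% to 4144% and that of Hoxb8 from 745% to 1319%, and Hoxb6 in CAST-/129+ went from 205% to 650%. With bases shared between genes included, Hoxb8 was at 479%.

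Hoxa7 and Hoxd9, of the middle of HoxA and HoxD, went the same way. Hoxa7 was at 0.293 FPKM in wild type, while CAST+/129- had 0.362, CAST-/129+ had 0.400 and CAST-/129- had 1.72 (0.953 to 2.86), or 588% (248% to 1445%) of wild type. Hoxd9 was at 0.386, 0.330, 0.151 and 1.25 FPKM (0.541 to 2.47 in CAST-/129-), where the interval of the last overlapped that of wild type, while that of its ratio, 324% (112% to 898%), was above 100%. In coding bases alone that ratio was 213%. Hoxd13 was at 1.03, 0.483, 0.331 and 1.93 FPKM, and its ratio in CAST-/129- of 186% (91.8% to 359%) included 100%.

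**Figure D3:**
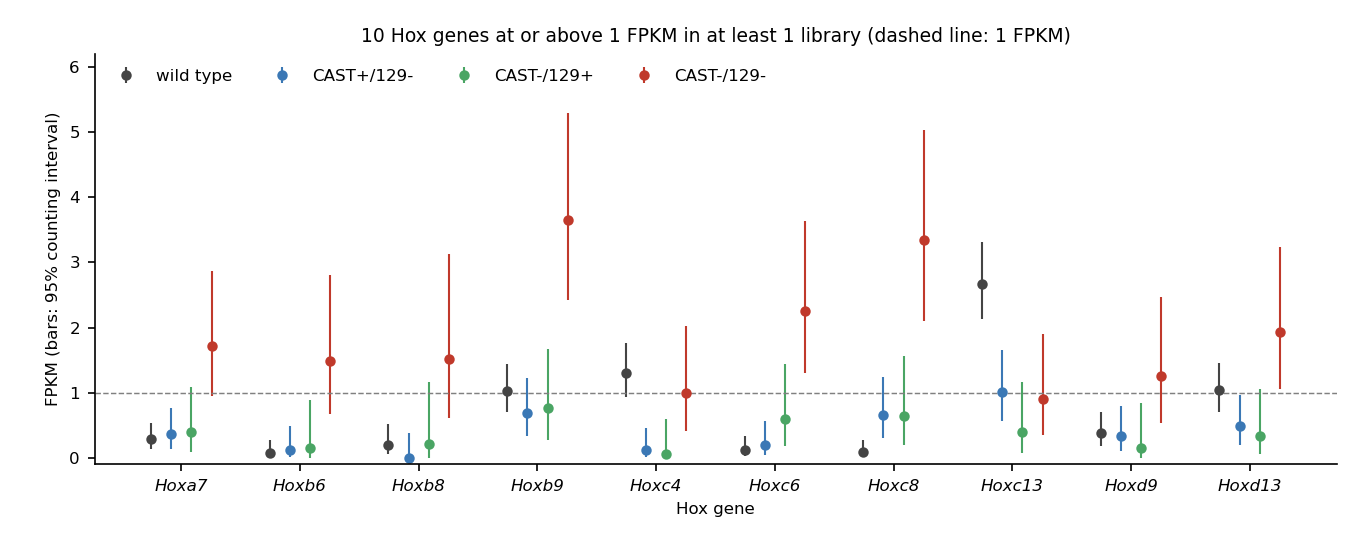
FPKM of 10 Hox genes at or above 1 FPKM in at least 1 RNA-seq library, with 1 point per library and bars for the 95% counting interval, and a dashed line at 1 FPKM. For Hoxa7, Hoxb6, Hoxb8, Hoxb9, Hoxc6 and Hoxc8 the CAST-/129- point stands above wild type with bars that do not meet, and for Hoxc13 wild type stands above all 3 deletion clones.

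Hoxc13 and Hoxc4, both over 1 FPKM in wild type, went the other way in some or all clones. Hoxc13 was at 2.68 FPKM in wild type, while CAST+/129- had 1.01, CAST-/129+ had 0.401 (0.0826 to 1.17) and CAST-/129- had 0.903 (0.348 to 1.91), and no deletion clone's interval met that of wild type. The ratios were 37.7% (20.4% to 65.4%), 15% (3.03% to 45.3%) and 33.7% (12.6% to 74.5%), so that the clones did not differ from each other beyond their intervals. Hoxc4 was at 1.30, 0.125, 0.0643 and 1.0 FPKM, low in both monoallelic clones and near wild type in CAST-/129-. In coding bases alone its ratios were 0%, 0% and 20.8%, so the Hoxc4 value of CAST-/129- rests mostly on reads outside the coding sequence.

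The other 28 genes were below 1 FPKM in every library. Hoxa6 and Hoxd12 had no alignment in any of the 4. The highest of them in CAST-/129- were Hoxd8 at 0.996 FPKM, against 0.0293 in wild type, Hoxb7 at 0.907 against 0.0533, Hoxb4 at 0.846 against 0.398, Hoxa5 at 0.819 against 0.342 and Hoxb1 at 0.809 against 0.0346. Hoxb1 acts in the hindbrain. Lower in CAST-/129- than in wild type were Hoxc9, Hoxc12 and Hoxd1, at 0.0703, 0 and 0.0917 FPKM against 0.149, 0.545 and 0.215. These rest on 1, 0 and 1 alignments in CAST-/129-, where the 0 of Hoxc12 allows up to 0.994 FPKM, and the interval of each ratio includes 100%, so that no difference was detectable at this depth.

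Markers of another cell type were highest in the clone with the highest Hox sum. Fibroblasts of the trunk are known to carry Hox RNA, and 22 fibroblast markers summed to 63.7 FPKM in wild type, while CAST+/129- had 255, CAST-/129+ had 294 and CAST-/129- had 921. Of these 22, 4, 4 and 13 were past 3-fold up in the clones in that order and 1, Pdgfra, was past 3-fold down in each. In both monoallelic clones the 4 were Col1a1, Col1a2, Acta2 and Tagln. Acta2 was at 3.56, 73.5, 82.5 and 180 FPKM and Tagln at 4.08, 69.8, 94.9 and 163 FPKM. Thy1 was at 11.4, 5.67, 6.25 and 27.6 FPKM. Without a threshold, 18, 20 and 21 of the 22 were higher than in wild type. Lum and Fap were at 0 in wild type, and no marker was at 0 in a deletion clone. Lum, an extracellular matrix proteoglycan, was at 8.56 FPKM in CAST-/129- and at most 0.193 in the monoallelic clones, and Dcn, of the same family, was at 0.0622, 1.74, 1.36 and 30.2 FPKM. The marker sum was lowest in wild type and next in CAST+/129-, CAST-/129+ and CAST-/129-. The sum over all 39 Hox genes was 71.6%, 84.9% and 251% of wild type in the deletion clones in that order. The part of such cells in the Hox values was not tested, and in RNA from bulk cells a change in the share of cells and a change in RNA per cell cannot be told apart.

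Markers of mesoderm and streak summed to 5.83, 67.0, 99.3 and 91.8 FPKM. Hand1 and Eomes, which are also on the trophectoderm list, were at 43.8 and 18.3 FPKM in CAST+/129- and so made up most of its sum, and Hand1 alone was past 3-fold up there. In CAST-/129+ T, Eomes and Hand1 were up. In CAST-/129- T, Mixl1 and Hand1 were past 3-fold up, while Mesp1 and Foxf1a were at 0, against 4 and 6 alignments in wild type. Of 10 ESC markers, Nanog, Sox2, Klf4, Esrrb, Zfp42 and Tbx3 were past 3-fold down in CAST-/129-, Klf4 and Tbx3 were down in both monoallelic clones too, and Dppa3 was up in all 3. Of 8 neural markers that could be matched Nes was up in CAST+/129- and CAST-/129- and 0 were up in CAST-/129+. Of 9 trophectoderm markers 4 were up in CAST+/129-, 5 in CAST-/129+ and 4 in CAST-/129-. Of 10 primitive endoderm markers 0 were up in any clone and 2 were down in each, Gata6 in all 3 with Gata4 in CAST+/129- and Lama1 in the other two. Their part in the Hox values was not tested either.

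Genes that act with or on Hox genes were mostly within 3-fold. Of 9 cofactors of Hox proteins 0 were up and 0 down in any clone. Of 12 upstream regulators of Hox genes 1 was up, Cyp26a1, which breaks down retinoic acid, at 2.90, 3.39, 55.5 and 19.3 FPKM. It was highest in CAST-/129+. The part of these 12 regulators in the Hox values was not tested. Cdx2, a regulator of central Hox genes, was at 0.0710, 0.708, 1.09 and 1.59 FPKM, above wild type in each clone, from 4 to 21 alignments. Cdx1, of the same family, was at 4.22, 0.549, 0.470 and 3.71 FPKM, or 13% (4.65% to 29.4%), 11.1% (1.82% to 36.7%) and 87.9% (50.6% to 145%) of wild type, and so was lower in both monoallelic clones. Of 20 Polycomb genes and of 9 genes of Trithorax proteins and H3K27 demethylases 0 were up and 0 down. Suz12, a core subunit of Polycomb repressive complex 2, was at 87.4, 72.5, 64.0 and 45.3 FPKM, and Ezh2, its methyltransferase, at 32.1, 33.3, 34.5 and 23.6 FPKM. The lists fixed for these groups were chosen with earlier results known.

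At the promoters, 5-fold H3K4me3 was seen at more Hox genes than 5-fold H3K27ac. Counted within 2 kb on each side of the gene start and divided by the autosomal mean of the library, H3K4me3 in F123 reached 5-fold at 8 of 39 Hox starts, or 20.5%, against 45.6% of all protein-coding starts and 10.4% of those of genes under 1 FPKM in wild type. Among them were Hoxc13 at 11.3-fold (9.44 to 13.5), Hoxa5 at 10.9, Hoxa4 at 7.94, Hoxa13 at 6.87, Hoxd8 at 5.71, Hoxd1 at 5.35 and Hoxc12 at 5.17 (3.93 to 6.69). Just below 5-fold were Hoxb9 at 4.90 (3.69 to 6.38) and Hoxa7 and Hoxd9 at 4.37 each. HoxA held 4 of the 8, HoxC and HoxD 2 each and HoxB 0. The median Hox start was at 3.03-fold, against 1.07-fold for genes under 1 FPKM, and the lower quartile of the Hox starts was at 2.10-fold, so that H3K4me3 above the mean was spread over most of them. The lowest were Hoxc4 and Hoxd4, both at 0.624-fold at the annotated gene start. At the start of the coding sequence they were at 3.57-fold and 3.48-fold.

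H3K27ac in F123 reached 5-fold at 2 Hox starts, among them Hoxc13 at 6.41-fold (3.66 to 10.4), against 27.5% of all protein-coding starts and 3.23% of those under 1 FPKM. Hoxc13 is also the gene with the most RNA in wild type. The start of another annotated gene, Gm17649, lies in the same window, so neither mark there can be assigned to Hoxc13 alone. The mean of the library gave 2.50 alignments in a window, so the Hoxc13 value rests on 16 alignments. At the other 37 starts it was between 0 and 2.4-fold. Hox starts with both marks were thus 2 of the 8 with H3K4me3, or 25%, against 55.1% of all protein-coding starts with H3K4me3 and 19.7% of those under 1 FPKM. In J1, 0 Hox starts reached 5-fold, against 21.8% and 2.95%. Hoxc13 was at 3.34-fold (2.4 to 4.53) there and Hoxa10 at 2.69-fold.

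**Figure D4:**
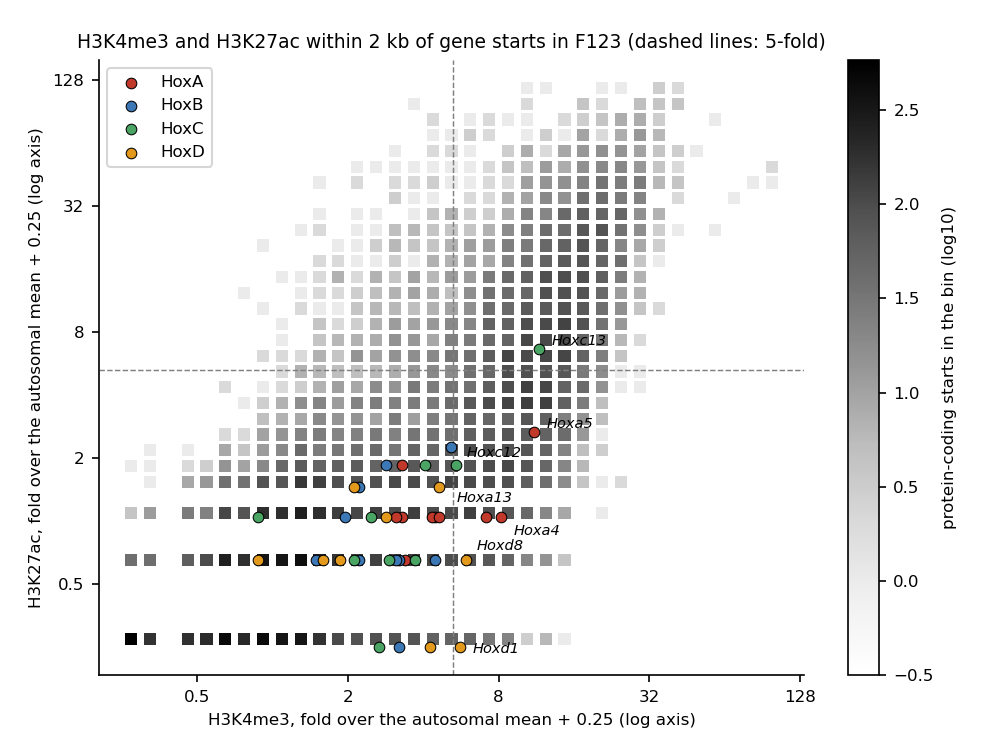
H3K4me3 against H3K27ac within 2 kb of gene starts in F123, as fold over the autosomal mean plus 0.25 on log axes, with 38 Hox genes as points by cluster, all protein-coding starts as grey squares shaded by their number, and dashed lines at 5-fold. Hoxc13 is the only point drawn past both lines, and the 6 other labelled genes are past the H3K4me3 line alone.

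RNA and H3K4me3 in wild type did not single out the same genes beyond Hoxc13. Hoxa5, Hoxa4 and Hoxa13 were past 5-fold in H3K4me3 with 0.342, 0.227 and 0.212 FPKM, while Hoxc4, with 1.30 FPKM, had 0.624-fold at its annotated gene start and 3.57-fold at the start of its coding sequence. The genes highest in CAST-/129- differed in wild type H3K4me3, at 4.90-fold (3.69 to 6.38) for Hoxb9 and 1.87-fold (1.16 to 2.86) for Hoxc8. Their H3K27ac was at 2.0-fold (0.650 to 4.67) and 0.400-fold (0.0101 to 2.23). These rest on 5 and 1 alignments, and the intervals overlap.

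Across whole clusters the mean H3K4me3 was 3.37-fold in HoxA, 2.24-fold in HoxB, 2.46-fold in HoxC and 2.39-fold in HoxD, against 1.42, 1.24, 1.14 and 1.92-fold in the 20 kb on either side. In bins of 1 kb, 5-fold H3K4me3 was reached in 16 of 106 bins of HoxA, 13 of 175 of HoxB, 10 of 117 of HoxC and 12 of 98 of HoxD. Of these 51 bins, 25 were centred within 2 kb of a Hox start and 26 farther away. The annotated 5′ end of each gene was used as its start, and other starts of the same gene were not counted as starts. That of Hoxa3, for example, lies between Hoxa6 and Hoxa7.

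The strongest H3K27ac within the clusters was away from Hox starts. Of 18 bins at 5-fold in F123, 5 were within 2 kb of a Hox start and 13 farther. Adjoining bins were counted singly. The share of all cluster bins within 2 kb of a Hox start is not given here, so for neither mark do these counts alone show a preference. In HoxC the highest bin, chr15:102762001-102763000 of mm9, was at 51.3-fold from 32 alignments in F123 and 12.4-fold from 38 in J1, with H3K4me3 at 8.92-fold. It lies between Hoxc13 and Hoxc12, overlaps no annotated gene, and is centred 4.69 kb from the Hoxc12 start. In HoxB the highest bin, chr11:96112001-96113000, was at 46.5-fold from 29 alignments in F123 and 15.6-fold from 48 in J1. It holds the start of Gm53, annotated as protein-coding in the wide gap between Hoxb13 and Hoxb9, 20.3 kb from the Hoxb9 start. H3K4me3 was at 14.3-fold there and 23.2-fold in the next bin. Gm53 RNA was at 3.41 FPKM in wild type, while CAST+/129- had 2.41, CAST-/129+ had 0.454 and CAST-/129- had 0.601. It was below wild type by its interval in every deletion clone, at 70.8% (51.8% to 95.5%), 13.3% (4.56% to 30.6%) and 17.6% (6.98% to 37.1%). HoxA had 2 bins at 5-fold and HoxD had 1, at 8.01-fold from 5 alignments.

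**Figure D5:**
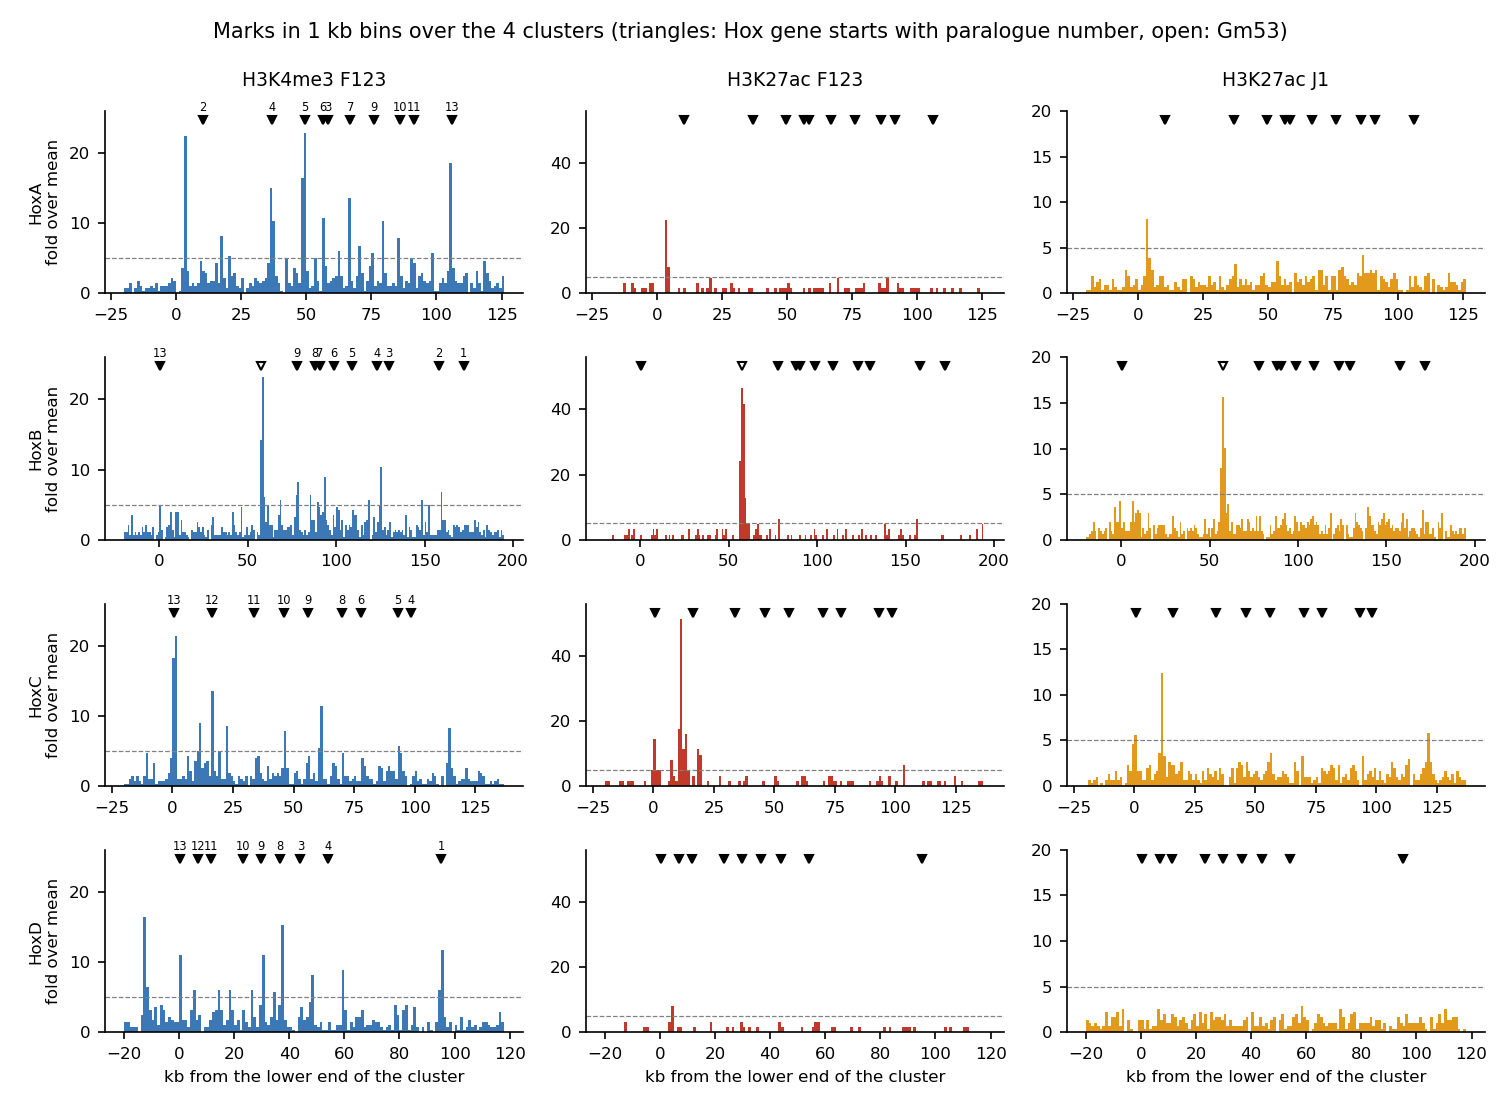
H3K4me3 in F123, H3K27ac in F123 and H3K27ac in J1 in 1 kb bins as fold over the autosomal mean along the 4 clusters and 20 kb beyond each end, with filled triangles at the starts of 38 Hox genes, paralogue numbers above them in the left column, an open triangle at Gm53 and a dashed line at 5-fold. The tallest H3K27ac bins, at 51.3-fold in HoxC and 46.5-fold in HoxB in F123, stand between Hox genes and recur in J1.

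The promoter of Hoxc13, which had both marks and the most RNA in wild type, is shown as the 250 bases before the annotated start read 5′ to 3′ on the gene's strand from the mm9 genome, with each CG pair in capitals because CG-rich promoters are those that carry H3K4me3 in ESCs most often. It lies at chr15:102751284-102751533 on the plus strand.
Hoxc13: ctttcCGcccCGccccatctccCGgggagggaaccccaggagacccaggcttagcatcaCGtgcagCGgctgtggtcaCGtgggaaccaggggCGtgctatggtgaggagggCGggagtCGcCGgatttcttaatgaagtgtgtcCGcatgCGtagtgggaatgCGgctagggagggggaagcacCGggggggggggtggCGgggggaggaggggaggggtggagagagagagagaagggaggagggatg

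It holds 15 CG pairs, against 23 in the promoter of Hoxc8 and 16 in that of Hoxb9, the highest genes of CAST-/129-. Over the 39 Hox genes the median was 11, with a range of 2 to 41, against 9 over all protein-coding genes and 3 over those under 1 FPKM in wild type. Hox promoters thus resembled the average promoter in CG pairs more than that of other scarce genes. The letters TATAAA, the core of a TATA box, were found on the gene's strand in the promoters of Hoxa9 and Hoxd13, or 5.13% of the 39, and in 8.22% of all and 12.8% of those under 1 FPKM. The letters TGATTNAT, the type of site that Pbx and Hox proteins bind together, were found on either strand in those of Hoxb3 and Hoxb9, or 5.13% of the 39, against 2.55% of all and 3.99% of those of genes under 1 FPKM. A match is a description of the sequence and no evidence of binding.

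The genes around and inside the clusters were described alongside. The nearest protein-coding neighbours, Skap2 and Evx1 at HoxA, Ttll6 and Skap1 at HoxB, Calcoco1 and Smug1 at HoxC, and Evx2 and Mtx2 at HoxD, were all within 3-fold in each clone after 4 was added to FPKM. Without it, Evx1, a homeobox gene beyond Hoxa13, was at 0.0837, 0.223, 1.26 and 0.831 FPKM, or 1501% (397% to 8381%) of wild type in CAST-/129+ and 993% (227% to 5952%) in CAST-/129-. Ttll6 was at 0.947, 0.934, 0.639 and 0.177 FPKM, or 18.7% (2.2% to 71.6%) of wild type in CAST-/129-, where it had 4 alignments. Of 16 non-coding genes inside the clusters with enough unique bases, 1 was at or above 1 FPKM in each library, the pseudogene Gm11539 in HoxB at 114, 136, 115 and 83.7 FPKM. Pseudogene reads can come from the parent gene. Gm15055, chosen after its values were seen, lies 42.8 kb outside the HoxA cluster, and was at 29.0 FPKM in wild type and 6.10, 1.79 and 6.64 FPKM in the clones. The hairpins of the microRNAs inside the clusters, of the miR-10, miR-196 and miR-615 families, had 4 alignments in each of wild type and CAST+/129- at Mir196a-1 and 0 elsewhere. Selection for polyA leaves mature microRNAs out.

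Alignments on the Hox strand exceeded those on the other strand in every cluster and library. In HoxA they made up 83.0%, 65.6%, 67.5% and 77.1% of all alignments in the 4 libraries, in HoxD 78.5%, 73.8%, 66.1% and 81.6%, in HoxC 79.1% to 91.2% and in HoxB 88.2% to 92.3%. The HoxB share says little of Hox RNA, since in wild type 145 of its 3023 alignments on the Hox strand were in Hox exons and 1580 were on Gm11539. Across the exonic bases of all genes 2.89% to 3.39% of alignments were on the opposite strand. The cluster shares are not a like measure, since they also count alignments outside exons. In HoxA in wild type, 24 of the 47 alignments on the other strand lay outside all exons. HoxA held 83 to 276 alignments on both strands together and HoxD 59 to 149.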

How the data were processed

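RNA-seq of 4 F123 clones and ChIP-seq of F123 and J1 cells were analysed, 7 libraries with 1 for each condition, grouped by the sample labels. The authors mapped strand-specific polyA RNA-seq with Novoalign and ChIP-seq with Bowtie, to mm9 per the submitters' processing notes, and deposited lists of aligned positions, 1 line per distinct alignment, with a count of the reads it stands for. The H3K4me3 antibody differs between the labels and the study's methods.

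Distinct alignments were the unit. RNA alignments, which carry the strand opposite to the transcript, were assigned by midpoint to exonic bases of 1 gene on 1 strand in GENCODE M1 on NCBIM37, and genes under 200 such bases were left out. The 2 annotation entries for Hoxa3 were merged. The library size behind each FPKM was the sum of alignments on genes. After 4 was added to each FPKM, clones were divided by wild type, in log2, and called at 3-fold, as in the study's methods. Files hold both mates of a fragment, so intervals are exact 95% Poisson intervals, or exact binomial intervals for ratios, on counts halved, and a count of 0 allows 3 fragments, or 6 alignments. They cover counting error only, and reads carried no molecular identifiers. For sums, the interval of the summed counts was scaled to the summed FPKM. ChIP-seq 5′ ends within 2 kb of a gene's 5′ end were divided by the autosomal mean, with no input and a threshold of 5-fold. ChIP-seq libraries held 7108751, 1576875 and 7743500 distinct alignments for H3K4me3 in F123, H3K27ac in F123 and H3K27ac in J1.

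All 39 Hox genes enter the counts and sums. Values in every library are given for those at or above 1 FPKM in any, and others by range and extremes, except for 1 gene and for sequences that are not reported here. The members and gene lists were chosen with earlier results of these data known. Alternatives changed the unit, strand, library size, thresholds, windows and members. The software was Python 3.11.15 with pysam 0.24.0, matplotlib 3.10.9, scipy 1.17.1, pandas 2.3.3 and numpy 2.4.6. Alleles were not told apart.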

Additional observations from a re-analysis of the deposited data

Results flagged for a closer look

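The summed Hox FPKM differed in direction between the clones. It was higher than wild type in CAST-/129-, at 250.6%, and lower in both monoallelic clones, at 71.6% in CAST+/129- and 84.9% in CAST-/129+. With 1 library each the difference between mono- and biallelic clones was not tested. The interval of CAST-/129+, 65.9% to 108%, includes 100%, and its value was 107% with reads before collapsing. Other genes under 5 FPKM had sums of 77.5%, 84.8% and 99.8% in CAST+/129-, CAST-/129+ and CAST-/129-, so the lower Hox sums of the monoallelic clones were near those of scarce RNAs in general. The single Hox genes of these clones did not follow the sums, since more were higher than lower in both.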

How the results depend on the processing

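No paired analysis was possible because each condition has 1 library, and no replicate could be left out. Of 172 values under alternatives for the main counts and sums, 139 stayed within the limits set for no change and 33 moved. The Hox sum of CAST-/129+, whose interval includes 100%, turned from below to above wild type with reads before collapsing, at 107%, and without Hoxc13, at 104%. The Hox sum of CAST-/129- stayed above wild type under every alternative run. It was 343% of wild type with reads before collapsing, where other genes under 5 FPKM were at 129%, 182% with each start position counted once, where they were at 81.9%, 309% in coding bases only and 311% without Hoxc13. With each start position counted once, CAST-/129+ was at 65.1%. The number of Hox genes at or above 1 FPKM in wild type, 5, became 1 with reads before collapsing, 2 with a library size of all alignments in the file and 1 at a level of 2 FPKM. For CAST+/129-, 2 became 0 with reads before collapsing, 4 with each start position counted once, 1 with both strands together, 1 in coding bases only, 1 with a library size of all alignments, and 4 and 0 at levels of 0.5 and 2 FPKM. For CAST-/129+, 0 became 4 with each start position counted once, 2 in coding bases only, 1 under median of ratios scaling, 1 at the lowest depth and 6 at 0.5 FPKM. For CAST-/129-, 9 became 18 with each start position counted once, 20 at 0.5 FPKM and 3 at 2 FPKM. The count of genes up in CAST-/129- became 1 with 1 added to FPKM. The 8 Hox starts with H3K4me3 became 14 with a window of 1 kb, 2 with 5 kb, 20 at 3-fold and 2 at 10-fold. The 2 with H3K27ac in F123 became 1 with 5 kb and 0 at 10-fold, and the 0 in J1 became 1 with 1 kb, 1 over the mean of chromosome 3 and 2 at 3-fold. The cause of these differences was not tested. Among 258 ratios of named genes under alternatives, 252 stayed within the counting interval of the reported ratio, which is wide, and 6 left it, all in coding bases only, 3 of them of Hoxc4. Of the 258, 35 differed from the reported ratio by more than 1.5 times, 14 of them with reads before collapsing and 15 in coding bases only. Single genes rest on few alignments, since the 39 genes together held 161 in CAST-/129+.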
